A study of Mus musculus with 24 samples.

Results

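Macrophages that received tunicamycin together with IL-4 and IL-13 were compared with naive macrophages from the same mice, to ask what of the cytokine response was left, which transcripts lay below the naive level and which were new. The comparison holds 8 of the 24 libraries of the series: the 4 columns of the gene count table that end in Tunica and the 4 that end in M0, matched by their leading mouse number (1, 2, 4 and 5). Each library measured transcripts by RNA sequencing, and the values are reads counted per gene. All cells were bone marrow-derived macrophages of WT C57BL/6J mice, taken per the study's methods from 9-week-old females and grown in M-CSF, for which the methods give 50 ng/ml and the labels 50 µg/ml. Naive cells had neither IL-4 nor IL-13. The tunicamycin group was pretreated for 1 h with tunicamycin at 5 µg/ml and then kept for 24 h in tunicamycin plus IL-4 and IL-13, each at 20 ng/ml. Another group of 4 libraries, with IL-4 and IL-13 alone at the same doses for 24 h, served to define the cytokine response. The series has no group with tunicamycin and no cytokine, and its labels name no vehicle, so what tunicamycin did alone and what it did to the cytokine response cannot be told apart.

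Reads on genes numbered 19883716, 17768551, 18937573 and 19639090 in the naive libraries of mice 1, 2, 4 and 5, and 18551911, 20316948, 17230982 and 18782815 in the tunicamycin libraries. The IL-4/IL-13 libraries held 17504073, 19592076, 19244354 and 16238727. Levels are given below as CPM, edgeR's read counts scaled to library sizes with TMM factors, always in the order of mice 1, 2, 4 and 5, and means as mean ± SD with n = 4. Gene positions are GRCm39 spans. A gene was called when its adjusted *P* was under 0.05 and its change at least 2.5-fold. The words rose and fell are kept for genes with an adjusted *P* under 0.05.

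Tunicamycin blocks DPAGT1, the enzyme that starts the sugar chain of N-linked glycoproteins on dolichol, so that proteins in the endoplasmic reticulum (ER) misfold and the unfolded protein response (UPR) begins. One arm of the UPR, through the kinase PERK, phosphorylates eIF2α and joins the integrated stress response (ISR), in which ATF4 and CHOP drive genes for amino acid supply, while ATF6 and IRE1 drive genes for ER chaperones and the disposal of misfolded proteins. IL-4 and IL-13 act on macrophages through the glycosylated receptor chain IL-4Rα, JAK kinases and STAT6, which turns on genes such as *Retnla* and *Chil3*.

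With tunicamycin, the macrophages stood neither at the naive nor at the cytokine state. Most genes called higher with IL-4/IL-13 were not past the test against naive or fell below it, most genes called lower with IL-4/IL-13 also fell against naive here, and most listed genes of the ISR, of ER protein folding and of N-glycosylation rose above naive. Against naive, 1026 of 13679 genes tested were called higher (7.5%) and 2061 called lower (15.1%). Without the fold limit, 5073 genes rose (37.1%) and 5544 fell (40.5%), with a median log2 fold change over all genes tested of -0.05. IL-4/IL-13 alone called 737 genes higher (5.39%) and 832 lower (6.08%) than naive, and tunicamycin plus IL-4/IL-13 called 1171 higher (8.56%) and 1917 lower (14%) than IL-4/IL-13. These comparisons share libraries in pairs: the naive libraries stand in the first and second, and the tunicamycin libraries in the first and last. The first principal component of the 12 libraries took 66.2% of the variance and the second 24.9%.

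Of the 737 genes called higher with IL-4/IL-13, 89 (12.1%) were still called higher than naive with tunicamycin, and 75 (10.2%) rose by less than 2.5-fold. Another 156 (21.2%) were not past the test against naive. The largest class, 417 genes (56.6%), fell below the naive level, 301 of them (40.8% of the 737) by at least 2.5-fold. The median log2 fold change of the 737 against naive was 1.96 with IL-4/IL-13 and -1.06 with tunicamycin. With the genes at the counting floor set at their bound, the latter was -0.69; the floor is 3 counts per library, and 139 of the 737 stood at or under it in all 4 tunicamycin libraries. Per mouse, on log2 CPM with a prior count of 2, the median of the 737 was -0.77, -0.8, -0.68 and -0.7. All 4 mice thus stood below naive by this measure.

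Of the 832 genes called lower with IL-4/IL-13, 427 (51.3%) were still called lower than naive with tunicamycin and 140 (16.8%) fell by less than 2.5-fold. A further 105 (12.6%) were not past the test, and 160 (19.2%) rose above naive, 77 of them (9.25%) by at least 2.5-fold. The median of the 832 was -1.92 with IL-4/IL-13 and -1.4 with tunicamycin, and the per-mouse medians with tunicamycin were -1.37, -1.32, -1.3 and -1.29. A gene was counted as new when it was called against naive with tunicamycin, not called with IL-4/IL-13, and called in the same direction against IL-4/IL-13. By that rule 650 genes were new and higher (63.4% of the 1026) and 921 new and lower (44.7% of the 2061).

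**Figure D1:**
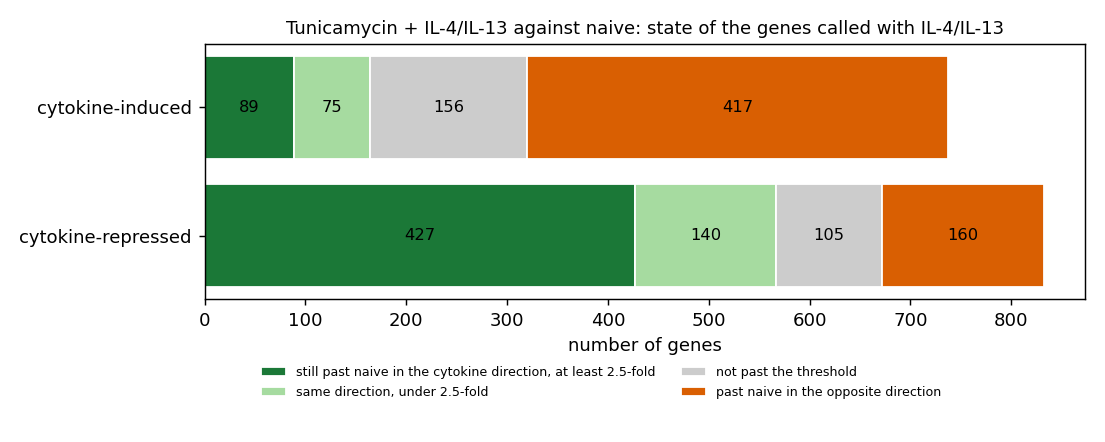
Number of genes in each class of the net state with tunicamycin against naive, for genes called higher or called lower with IL-4/IL-13. Among the 737 cytokine-induced genes the largest block is below naive (417), and among the 832 cytokine-repressed genes it is still lower (427).

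The genes called higher than naive with both treatments, named kept below, were a small set that included transcription factors, a water and glycerol channel, surface receptors and enzymes of serine and nucleotide synthesis. Of the 89 kept genes, 40 (44.9%) stood above their level with the cytokines alone, 24 (27%) stood below it and 25 (28.1%) were not past the test between these groups. The 89 were chosen in part by their high level with tunicamycin, so these shares depend partly on that choice. *Aqp9* (ENSMUSG00000032204, chr9:71017928-71075964), a channel for water and glycerol, measured 0.195, 0.227, 0.161 and 0.149 CPM in naive, 11, 9.48, 6.69 and 6.98 with IL-4/IL-13 and 81.9, 82.4, 91.8 and 75 with tunicamycin. The 3 groups did not overlap, with the tunicamycin libraries on top. Its log2 fold change against naive was 8.78 ± 0.58 (SE) (edgeR quasi-likelihood test, Benjamini-Hochberg adjusted *P* = 2.1e-20; higher in 4 of 4 mice). *Tarm1* (ENSMUSG00000053338, chr7:3533019-3551140), an activating immunoglobulin-like receptor of myeloid cells, went from 0.634, 0.455, 0.965 and 0.348 CPM in naive and 29.1, 28.6, 29.7 and 28.3 with IL-4/IL-13 to 76.3, 82.1, 83.8 and 77.1 with tunicamycin, again with no overlap. This was 132-fold above naive, at a log2 fold change of 7.04 ± 0.19 (SE). *Gfi1b* (ENSMUSG00000026815, chr2:28499462-28511994), a transcriptional repressor of blood cell development, was near 0 in naive at 0.0976, 0.284, 0.0536 and 0.0994 CPM, and reached 8.3, 8.98, 9 and 9.1 with IL-4/IL-13 and 12.7, 12.3, 12.9 and 13.1 with tunicamycin. Both treated groups were high and differed little from each other, the tunicamycin libraries being above all IL-4/IL-13 libraries (log2 fold change against naive 6.54 ± 0.45 (SE), and 7.15 without mouse 2).

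*Plppr4* (ENSMUSG00000044667, chr3:117112788-117154525), a membrane protein related to lipid phosphatases, had 3 naive libraries with 1 count and 1 with none. It measured 1.45, 1.26, 0.79 and 1.21 CPM with IL-4/IL-13 and 13.5, 23.4, 15.4 and 15.8 with tunicamycin, and the ratio of pooled counts of tunicamycin to naive was 441 (95% exact counting interval 150 to 2140). Both treated groups were above naive, and the tunicamycin libraries above those with cytokines alone. *Phgdh* (ENSMUSG00000053398, chr3:98220484-98255047), the first enzyme of serine synthesis from glucose, measured 2.15, 1.54, 1.88 and 1.04 CPM in naive, 5.07, 5.24, 5.21 and 4.67 with IL-4/IL-13 and 85.3, 76.7, 81.2 and 74.3 with tunicamycin. Its small cytokine rise (3.05-fold) was far below its level with tunicamycin, 47.8-fold over naive. Of its words (all stretches of 75 bases in its exons), 21.6% also lie elsewhere in the genome, which makes its count uncertain. Reads were sequenced to a greater length than these words per the study's methods, so the share of reads affected was not measured. Words named as shared below are those also found in transcripts of other genes. *Slc7a11* (ENSMUSG00000027737, chr3:49846975-50398070), the cystine importer, followed the same order with means of 4.51 ± 1.27, 14.7 ± 1.8 and 37.3 ± 2.65 CPM.

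Some kept genes stood between the naive and the cytokine level. *Klf4* (ENSMUSG00000003032, chr4:55527139-55532528), a zinc finger factor of the IL-4 response, measured 19.8, 15.6, 24.1 and 20.2 CPM in naive, 198, 180, 189 and 190 with IL-4/IL-13 and 165, 139, 169 and 144 with tunicamycin. All tunicamycin libraries were above all naive libraries and below all IL-4/IL-13 libraries (7.72-fold over naive, log2 fold change 2.95 ± 0.09 (SE); edgeR quasi-likelihood test, Benjamini-Hochberg adjusted *P* = 1e-19). *Nfil3* (ENSMUSG00000056749, chr13:53121245-53137010), a leucine zipper repressor placed in the list of the IL-4/IL-13 receptor pathway, gave 27.4, 27.9, 26.3 and 23.9 CPM, then 164, 162, 159 and 163 with IL-4/IL-13 and 103, 102, 100 and 100 with tunicamycin, 3.84-fold over naive. *Pfkp*, a phosphofructokinase of glycolysis, rose from 67.2 ± 3.4 in naive to 192 ± 5.15 with tunicamycin, against 289 ± 5.99 with IL-4/IL-13. In contrast, *Tyms*, which makes thymidylate and was the called riser among the DNA replication genes, stood above the cytokine level, at 3.73 ± 0.804, 11 ± 1.05 and 14.9 ± 1.41 CPM. *Cd36* (ENSMUSG00000002944, chr5:17986432-18094067), the fatty acid and lipoprotein scavenger receptor, was not one of the kept genes and rose by less than 2.5-fold: it measured 368, 421, 471 and 469 CPM in naive, 1280, 1510, 1640 and 1470 with IL-4/IL-13 and 749, 876, 825 and 842 with tunicamycin, with no overlap and the tunicamycin group in the middle (1.9-fold over naive).

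Most listed IL-4/IL-13 markers did not stand above naive with tunicamycin. In a list of 37 effectors and markers, 36 were tested, and 32 of these were called higher with IL-4/IL-13 (median log2 fold change 4.5). With tunicamycin 3 of the 36 were called higher than naive and 15 called lower, and at any fold 4 rose, 23 fell and 9 were not past the test. Over all genes tested, 7.5% were called higher and 15.1% lower, and 37.1% rose and 40.5% fell. The list median was -1.27, or -1.09 with floor genes at their bound, beside -0.05 for all genes tested. The 3 called higher were *Klf4*, *Myc* and *Ch25h*. *Ch25h* (ENSMUSG00000050370, chr19:34451178-34452564), which makes 25-hydroxycholesterol, measured 0.634, 1.48, 1.39 and 0.994 CPM in naive, 2.45, 1.87, 1.58 and 2.06 with IL-4/IL-13 and 19.4, 14.1, 22.9 and 16.8 with tunicamycin, but *Gm26902* overlaps 50.3% of its exons on the opposite strand. *Myc*, a growth factor-responsive regulator chosen after its value was seen, had means of 8.28, 63.2 and 49 CPM in the same order.

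*Retnla* (ENSMUSG00000061100, chr16:48662895-48664824), the secreted protein RELMα, and *Rnase2a* (ENSMUSG00000047222, chr14:51492719-51493595), a ribonuclease of the eosinophil family, were at the counting floor or close to it in both naive and tunicamycin libraries. *Retnla* measured 7960, 8060, 7830 and 7160 CPM with IL-4/IL-13. In the naive libraries it had 0, 7, 1 and 0 counts and in the tunicamycin libraries 0, 1, 0 and 0. Nearly all of its reads thus lay in the IL-4/IL-13 group. *Rnase2a* had no count in the naive libraries, 543, 551, 607 and 488 CPM with IL-4/IL-13, at least 3490-fold higher than naive, and 3, 1, 6 and 2 counts with tunicamycin. Between the tunicamycin and naive groups, the edgeR quasi-likelihood test gave a Benjamini-Hochberg adjusted *P* of 0.53 for *Retnla* and 0.086 for *Rnase2a*. With mouse as a block in the fit, the latter was past the test (edgeR quasi-likelihood test, Benjamini-Hochberg adjusted *P* = 0.0025).

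A larger group of markers fell under the naive level. *Chil3* (ENSMUSG00000040809, chr3:106054870-106074880), a chitinase-like lectin, measured 9.61, 13.1, 9.76 and 8.1 CPM in naive, 3500, 3650, 4000 and 3090 with IL-4/IL-13 and 1.59, 1.81, 2.67 and 0.866 with tunicamycin. The tunicamycin libraries were the lowest and met neither other group. The fall against naive was 5.87-fold (log2 fold change -2.55 ± 0.39 (SE); edgeR quasi-likelihood test, Benjamini-Hochberg adjusted *P* = 5.5e-07; lower in 4 of 4 mice). *Irf4* (ENSMUSG00000021356, chr13:30933209-30950959), a factor that IL-4 raises through STAT6, stood at 13.1, 13.1, 13.7 and 14.3 CPM in naive, 303, 314, 297 and 316 with IL-4/IL-13 and 1.13, 1.29, 1.87 and 2.04 with tunicamycin. It was thus 8.58-fold under naive in the presence of the cytokines. *Egr2* (ENSMUSG00000037868, chr10:67371305-67378018), another factor of the late IL-4 response, measured 11.8, 12.8, 14.4 and 15.7 CPM in naive, 411, 416, 391 and 422 with IL-4/IL-13 and 4.16, 2.86, 4.08 and 2.9 with tunicamycin, and again the tunicamycin libraries were the lowest (3.92-fold under naive). *Mrc1* (ENSMUSG00000026712, chr2:14234151-14336926), the mannose receptor CD206, was plentiful without cytokine at 191, 177, 224 and 192 CPM, rose to 558, 624, 736 and 619 with IL-4/IL-13 and was 75.1, 75.4, 85.9 and 76.4 with tunicamycin. This put it 2.51-fold under naive, in 4 of 4 mice.

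*Ccl22* (ENSMUSG00000031779, chr8:95471226-95478327), a chemokine for CCR4-bearing T cells, measured 2.44, 2.27, 2.52 and 2.98 CPM in naive, 24.6, 19.5, 29.6 and 23.6 with IL-4/IL-13 and 0.924, 0.476, 1.13 and 1.12 with tunicamycin, a fall of 2.82-fold against naive with no overlap. *Matk* (ENSMUSG00000004933, chr10:81088301-81102355), a kinase that holds back SRC family kinases, went from 27.3, 34.5, 27.7 and 23.5 CPM through 345, 366, 312 and 363 with IL-4/IL-13 to 1.28, 1.14, 0.737 and 1.17 with tunicamycin. It was 25.7-fold below naive, although 31.6% of its words are shared with other transcripts and it overlaps *Mrpl54* on the opposite strand. For *Mgl2* (ENSMUSG00000040950, chr11:70020954-70028376), the lectin CD301b, and *Pdcd1lg2* (ENSMUSG00000016498, chr19:29388319-29448882), the checkpoint ligand PD-L2, the step below naive was small. *Mgl2* measured 3.07, 3.87, 3.54 and 2.88 CPM in naive, 391, 374, 385 and 380 with IL-4/IL-13 and 2.21, 1.86, 2.38 and 2.45 with tunicamycin, where the tunicamycin libraries lay just under the naive ones. This fall (log2 fold change -0.58 ± 0.25 (SE); edgeR quasi-likelihood test, Benjamini-Hochberg adjusted *P* = 0.037) was under 2.5-fold, and was not past the test without mouse 1 (-0.58; 0.087) and without mouse 2 (-0.43; 0.22). *Pdcd1lg2* measured 1.22, 0.739, 0.912 and 0.745 CPM in naive, 60.1, 56.9, 66.8 and 61.4 with IL-4/IL-13 and 0.359, 0.476, 0.567 and 0.509 with tunicamycin, with the tunicamycin libraries lowest. This fall, also under 2.5-fold (log2 fold change -0.93 ± 0.25 (SE); edgeR quasi-likelihood test, Benjamini-Hochberg adjusted *P* = 0.0017), was not past the test without mouse 1 (-0.59; 0.1).

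**Figure D2:**
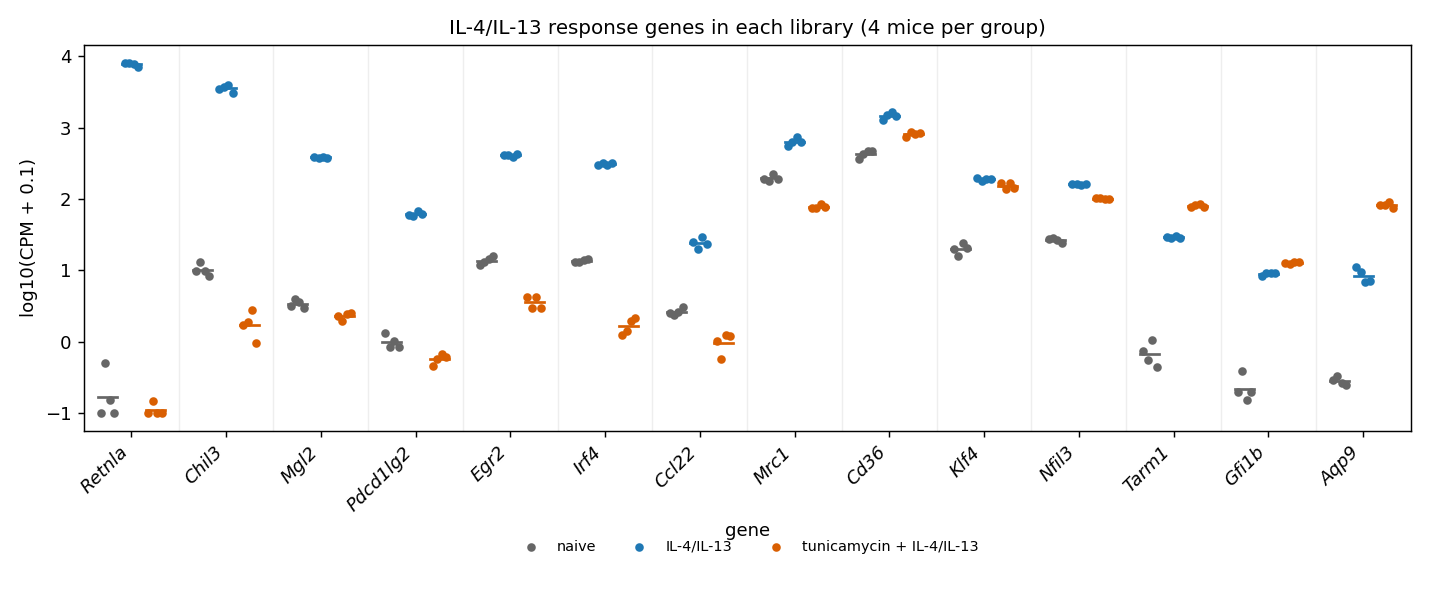
CPM of 14 cytokine-induced genes in each of the 4 naive, 4 IL-4/IL-13 and 4 tunicamycin libraries, on a log10 scale after adding 0.1, with a bar at each group mean. From *Chil3* to *Mrc1* every tunicamycin library lies below every naive one, and from *Cd36* to *Aqp9* every one lies above.

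The deepest falls below naive among cytokine-induced genes were of transcripts with almost no read left. *Galnt9* (ENSMUSG00000033316, chr5:110691867-110772427), which starts O-linked sugar chains on proteins, measured 5.22, 6.37, 6.6 and 5.71 CPM in naive and 21.7, 21.7, 21.3 and 21.1 with IL-4/IL-13 and had no count in any tunicamycin library. This was at least 38.6-fold lower than naive and at least 138-fold lower than with IL-4/IL-13. *Dcstamp* (ENSMUSG00000022303, chr15:39609214-39624334), needed for macrophages to fuse into giant cells, measured 5.86, 7.68, 5.36 and 7.06 CPM in naive, 134, 161, 146 and 139 with IL-4/IL-13 and 0.0513, 0, 0 and 0 with tunicamycin. Its naive to tunicamycin ratio of pooled counts was 503 (95% exact counting interval 89.8 to 19900), and 30.6% of its words are shared with the opposite-strand gene *Gm62978*. *Penk* (ENSMUSG00000045573, chr4:4132722-4141856), the precursor of enkephalins, went from 4.78, 7.79, 7.19 and 6.01 CPM and 20.6, 22.8, 22.5 and 20.6 with IL-4/IL-13 to 0.0513, 0, 0 and 0, with a naive to tunicamycin ratio of 496 (95% exact counting interval 88.5 to 19600). For *Slc36a2*, a transporter of small amino acids, this ratio was 315 (95% exact counting interval 56 to 12500), with a naive mean of 4.04 ± 0.823 CPM. For *Rab44*, a large GTPase of the RAB family, it was 71.8 (95% exact counting interval 24.2 to 351), with a naive mean of 2.76 ± 0.342 CPM. In each of these 5 genes every naive library was above every tunicamycin library.

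Of 17 genes of the IL-4/IL-13 receptor pathway 16 were tested, 3 were called higher than naive and 2 called lower, and at any fold 5 rose, 6 fell and 5 were not past the test. The median of -0.05 equals that of all genes tested, of which 7.5% were called higher and 15.1% lower and, at any fold, 37.1% rose and 40.5% fell. *Stat6* (ENSMUSG00000002147, chr10:127477821-127496862), the factor that carries the signal, measured 334, 304, 346 and 340 CPM in naive, 298, 309, 302 and 316 with IL-4/IL-13 and 216, 211, 223 and 215 with tunicamycin. The tunicamycin libraries were the lowest, 1.53-fold under naive. *Jak2*, a kinase of cytokine receptors, rose from 62.1 ± 10.1 to 180 ± 6.74 CPM. It also rose with IL-4/IL-13 alone, to a mean of 136 CPM. Its log2 fold change was 1.13 for IL-4/IL-13 against naive and 0.4 for tunicamycin against IL-4/IL-13. The adaptor *Irs2* and the feedback inhibitor *Socs2*, both called higher with IL-4/IL-13, fell below naive. *Irs2* measured 24.6, 17.5, 26.7 and 30.6 CPM in naive, 75.4, 74.6, 83 and 85.3 with IL-4/IL-13 and 7.03, 8.66, 7.54 and 8.71 with tunicamycin, and *Socs2* 3.66, 2.67, 2.2 and 4.17 in naive, 66.3, 65.9, 60.3 and 63.5 with IL-4/IL-13 and 0.873, 0.809, 0.397 and 1.48 with tunicamycin. Both genes were highest with IL-4/IL-13 and lowest with tunicamycin, with no overlap between groups. *Ptpn6*, the phosphatase SHP-1, fell with IL-4/IL-13 (522 ± 10.5 to 208 ± 6.71 CPM) and stood at 483 ± 16.1 with tunicamycin, which was not past the test against naive (edgeR quasi-likelihood test, Benjamini-Hochberg adjusted *P* = 0.057) but was with mouse as a block (0.025). Chosen after their values were seen, *Il4ra* had means of 169, 91.9 and 162 CPM in naive, IL-4/IL-13 and tunicamycin, *Cish* 1.84, 89.2 and 1.86, and *Socs1* 3.66, 63.8 and 4.16. None of these 3 was past the test against naive. The receptor chains *Il13ra1* and *Il2rg*, chosen in the same way, rose against naive, with means of 23.5, 5.87 and 45.3 CPM and of 113, 107 and 126 in that order.

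Of the genes called lower with IL-4/IL-13, 51.3% were called lower than naive with tunicamycin too, and without a group on tunicamycin alone it is not known which agent held them low. Of these 427 genes, 193 (45.2%) stood below their level with the cytokines alone, 64 (15%) stood above it and 170 (39.8%) were not past the test between these groups. Since the 427 were chosen in part by their low level with tunicamycin, these shares too depend partly on the choice. *Hpgd* (ENSMUSG00000031613, chr8:56747543-56774082), which degrades prostaglandins, measured 199, 210, 189 and 213 CPM in naive, 20.6, 20.1, 21.6 and 23.4 with IL-4/IL-13 and 1.64, 1.48, 1.82 and 2.55 with tunicamycin. The groups formed 3 separate steps, and tunicamycin was 108-fold under naive (log2 fold change -6.76 ± 0.13 (SE); edgeR quasi-likelihood test, Benjamini-Hochberg adjusted *P* = 5.9e-25). *Adgre4* (ENSMUSG00000032915, chr17:56056984-56175274), an adhesion receptor related to F4/80, fell from 129, 110, 144 and 123 CPM to 2.45, 2.62, 3.84 and 2.85 with IL-4/IL-13 and was 2.11, 1.76, 1.82 and 2.75 with tunicamycin, where both treated groups were low and overlapped. *Cd207* (ENSMUSG00000034783, chr6:83648190-83654839), the lectin langerin, went from 5.76, 7.96, 8.47 and 9.69 CPM to 0.39, 0.454, 0.632 and 0.0607 with IL-4/IL-13 and 0, 0.0476, 0.0567 and 0.102 with tunicamycin, at a naive to tunicamycin ratio of pooled counts of 155 (95% exact counting interval 60 to 569). *Dmpk*, a muscle-type kinase, had a ratio of 101 (95% exact counting interval 50.9 to 234), with naive libraries at 10.7, 12.3, 8.31 and 10.3 CPM. *Tcstv4* (ENSMUSG00000094796, chr13:120761817-120770374), a gene known from early embryos, stood at 12.6 ± 1.72 CPM in naive, 3.55 ± 0.332 with IL-4/IL-13 and 0.232 ± 0.0513 with tunicamycin, 52.8-fold under naive.

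Most interferon-stimulated genes, part of the antiviral response, were low with both treatments. Of 30 interferon-stimulated genes, 25 were called lower than naive with tunicamycin and none higher, and at any fold 29 fell and 1, *Isg20*, rose. With IL-4/IL-13, 26 of the 30 were called lower. The medians were -2.67 with tunicamycin and -3.15 with IL-4/IL-13, beside -0.05 for all genes tested with tunicamycin. Of all genes tested, 15.1% were called lower and 40.5% fell with tunicamycin, and IL-4/IL-13 called 6.08% lower. *Irf7* (ENSMUSG00000025498, chr7:140842619-140846398), the factor that amplifies interferon production, measured 571, 580, 469 and 457 CPM in naive, 29.5, 28, 29.9 and 39 with IL-4/IL-13 and 25.7, 27.2, 23.7 and 28.1 with tunicamycin. Both treated groups were low and close to each other, at 19.8-fold under naive with tunicamycin. *Oas3*, a sensor of double-stranded RNA, stood at 437, 375, 423 and 395 CPM in naive, 69.5, 73.7, 73.6 and 89 with IL-4/IL-13 and 16.1, 17.4, 14.6 and 16.9 with tunicamycin, lower still than with the cytokines. *Oasl2*, of the same family, had means of 523 ± 45.7, 60.1 ± 9.98 and 31.9 ± 1.49 CPM. *Ifit3* and *Ifit3b*, near copies that bind viral RNA, were lowest with IL-4/IL-13 (3.7 ± 0.619 and 0.251 ± 0.0915 CPM) and higher than that with tunicamycin (11 ± 1.11 and 1.35 ± 0.225), against 262 ± 36.8 and 53.1 ± 6.97 in naive. Because 27.1% and 36.6% of their words lie elsewhere in the genome, the values of these copies are uncertain.

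Macrophage identity genes also fell. Of 28 genes for identity and uptake 27 were tested, and with tunicamycin 18 were called lower than naive and 1, *Marco*, higher, while at any fold 24 fell, 2 rose and 1 was not past the test. Over all genes tested, 7.5% were called higher and 15.1% lower, and 37.1% rose and 40.5% fell at any fold. The list median was -2.48 with tunicamycin and -0.73 with IL-4/IL-13, beside -0.05 for all genes tested with tunicamycin. *Cx3cr1* (ENSMUSG00000052336, chr9:119877749-119898945), the fractalkine receptor, measured 121, 93.8, 130 and 113 CPM in naive, 2.01, 1.56, 2.84 and 1.46 with IL-4/IL-13 and 2.52, 2.38, 2.44 and 1.53 with tunicamycin. Its treated groups overlapped, both far under naive. *Axl* (ENSMUSG00000002602, chr7:25456535-25488329), a kinase receptor for dying cells, did not change with IL-4/IL-13 past the test (194, 167, 202 and 204 CPM in naive, 142, 160, 176 and 183 with the cytokines) but was 6.93, 5.71, 5.62 and 6.67 with tunicamycin, 30.7-fold under naive (log2 fold change -4.94 ± 0.17 (SE); edgeR quasi-likelihood test, Benjamini-Hochberg adjusted *P* = 1.2e-18). *Apoe*, which carries lipids, fell in steps from 6250, 9730, 6780 and 5770 CPM in naive through 1720, 1930, 1770 and 1740 with IL-4/IL-13 to 278, 267, 233 and 254 with tunicamycin. So did *Stab1*, a scavenger receptor, with means of 1500 ± 137, 223 ± 18 and 77.3 ± 7.62. *Lyz2* (lysozyme M), the highest of the 28 by CPM in each group, measured 21200, 26500, 25000 and 21600 CPM in naive, 5640, 5890, 6860 and 5540 with IL-4/IL-13 and 8460, 8710, 8650 and 8690 with tunicamycin.

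The summed level of the 28 macrophage genes was 55400, 66900, 63900 and 55800 CPM in naive, 24600, 25600, 28800 and 25200 with IL-4/IL-13 and 21800, 23100, 23200 and 22200 with tunicamycin. None of the 28 had all libraries at 0 in any group. This held for the stromal and the mast cell and basophil markers too, so it does not identify the cells. Of the 28, 1 was under 1 CPM in naive, 2 with IL-4/IL-13 and 2 with tunicamycin. Chosen after their values were seen, *Csf1r*, the receptor of M-CSF, had means of 4580 CPM in naive and 821 with tunicamycin, *Spi1*, the lineage factor PU.1, 522 and 490, and *Adgre1* (F4/80) 3490 and 6680, where *Adgre1* rose. In bulk RNA, fewer cells of a type and less RNA per cell cannot be told apart.

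A smaller set was called lower with IL-4/IL-13 and higher than naive with tunicamycin. *Ptger3* (ENSMUSG00000040016, chr3:157272492-157352099), the prostaglandin E2 receptor EP3, measured 2.15, 1.71, 2.47 and 1.54 CPM in naive, 0.501, 0.504, 0.421 and 0.546 with IL-4/IL-13 and 96.7, 91.1, 95.7 and 96 with tunicamycin. The cytokine libraries were the lowest and the tunicamycin libraries by far the highest, 48.1-fold over naive (log2 fold change 5.59 ± 0.12 (SE); edgeR quasi-likelihood test, Benjamini-Hochberg adjusted *P* = 4.3e-24). *Gdf15* (ENSMUSG00000038508, chr8:71082038-71091537), a stress hormone of the TGF-β family, followed the same order with 7.03, 7.39, 5.68 and 7.95 CPM in naive, 2.84, 1.87, 2.63 and 3.1 with IL-4/IL-13 and 146, 138, 140 and 128 with tunicamycin. *Pim2* (ENSMUSG00000031155, chrX:7744501-7749689), a survival kinase, measured 7.12, 8.41, 7.51 and 9.44 CPM in naive, 2.56, 2.07, 1.95 and 2.12 with IL-4/IL-13 and 111, 146, 116 and 135 with tunicamycin, 15.6-fold over naive. *Dnmt3l* (ENSMUSG00000000730, chr10:77877781-77899456), a partner of DNA methyltransferases, rose from 0.426 ± 0.0975 CPM in naive to 10.8 ± 0.411 (24.9-fold), with a tunicamycin to IL-4/IL-13 ratio of pooled counts of 132 (95% exact counting interval 60.4 to 361). *Cfap251* (ENSMUSG00000029442, chr5:123390165-123465548), a protein of cilia and flagella, rose from 1.73 ± 0.396 to 31.7 ± 1.76 CPM, 18.2-fold.

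Among the gene lists, that of the ISR had the highest median change against naive with tunicamycin. Of 34 ISR factors and effectors 32 were tested, and 26 were called higher than naive with tunicamycin and none lower; at any fold 28 rose, 1 (*Ddit4*) fell and 3 were not past the test. The median log2 fold change was 3.56, against 0.18 for the same genes with IL-4/IL-13 and -0.05 for all genes tested with tunicamycin. Over all genes tested, 7.5% were called higher with tunicamycin and 37.1% rose. *Atf4* (ENSMUSG00000042406, chr15:80139372-80141745), the central factor of the response, measured 121, 123, 103 and 117 CPM in naive, 143, 134, 124 and 142 with IL-4/IL-13 and 1090, 1110, 1070 and 1100 with tunicamycin. The tunicamycin libraries lay close together, 9.41-fold over naive (log2 fold change 3.23 ± 0.07 (SE); edgeR quasi-likelihood test, Benjamini-Hochberg adjusted *P* = 1.2e-21; higher in 4 of 4 mice). *Ddit3* (ENSMUSG00000025408, chr10:127124268-127132163), which encodes CHOP, measured 26.3, 34.4, 24.2 and 26 CPM in naive, 33.8, 31.9, 30.2 and 33.7 with IL-4/IL-13 and 612, 598, 590 and 600 with tunicamycin, 21.7-fold over naive. Its exons overlap *Mars1* on the opposite strand over 82.4% of their length, and *Mars1* rose too (34.6 to 109 CPM), so the reads of this pair are uncertain. *Trib3* (ENSMUSG00000032715, chr2:152179337-152191958), a pseudokinase that CHOP and ATF4 raise, measured 2.15, 1.99, 2.79 and 2.63 CPM in naive, 3.34, 4.29, 3.42 and 3.16 with IL-4/IL-13 and 856, 848, 793 and 842 with tunicamycin, 348-fold over naive. *Chac1* (ENSMUSG00000027313, chr2:119180757-119184866), which breaks down glutathione, was under 1 CPM in all naive (0.488, 0.341, 0.322 and 0.348) and all IL-4/IL-13 libraries (0.278, 0.504, 0.158 and 0.425) and reached 44.2, 42.2, 42.7 and 43.2 with tunicamycin. In these 4 genes no tunicamycin library met either other group.

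Several ISR effectors for amino acid supply rose as well, while the amino acid importer *Slc7a3*, chosen after its value was seen, was not past the test (edgeR quasi-likelihood test, Benjamini-Hochberg adjusted *P* = 0.16). *Asns* (ENSMUSG00000029752, chr6:7671667-7728461), asparagine synthetase, measured 6, 7.33, 5.09 and 4.72 CPM in naive, 7.46, 7.26, 8.53 and 9.35 with IL-4/IL-13 and 180, 188, 186 and 187 with tunicamycin, 32.1-fold over naive. *Slc7a5* (ENSMUSG00000040010, chr8:122607884-122634433), the importer of large neutral amino acids, measured 4.78, 3.7, 4.02 and 3.33 CPM, 5.85, 5.9, 7.11 and 5.89 with IL-4/IL-13 and 222, 228, 229 and 210 with tunicamycin, 56-fold over naive. Both genes were separated from the other groups by a wide gap. *Shmt2*, of mitochondrial one-carbon metabolism, rose 4.52-fold to 142 ± 2.91 CPM, and *Aldh1l2*, of the same pathway, 50.2-fold to 31.6 ± 3.25 CPM. *Ppp1r15a* (GADD34), which lets eIF2α be dephosphorylated, rose 6.65-fold from 40.5 ± 5.17 to 269 ± 9.94 CPM. *Slc25a33*, a mitochondrial pyrimidine nucleotide carrier, fell with IL-4/IL-13 (4.01 ± 0.99 to 1.84 ± 0.305 CPM) and rose to 35.8 ± 1.13 with tunicamycin. Another gene of the list not past the test was *Atf3*, a leucine zipper factor of stress responses, which IL-4/IL-13 raised: it measured 275, 316, 304 and 303 CPM in naive, 869, 884, 854 and 856 with IL-4/IL-13 and 332, 285, 315 and 312 with tunicamycin. Naive and tunicamycin libraries of *Atf3* overlapped (edgeR quasi-likelihood test, Benjamini-Hochberg adjusted *P* = 0.31), and the sign of its small log2 fold change (0.05 ± 0.05 (SE)) turned with upper-quartile scaling (-0.02); without mouse 2 it was past the test (log2 fold change 0.12; edgeR quasi-likelihood test, Benjamini-Hochberg adjusted *P* = 0.033).

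The enzymes that load amino acids onto tRNA rose as a family. All 20 cytosolic aminoacyl-tRNA synthetases tested rose with tunicamycin, 13 of them called higher, with a median of 1.73 against 0.31 with IL-4/IL-13, where none was called. By comparison, 7.5% of all genes tested were called higher with tunicamycin and 37.1% rose. *Aars1* (alanine) measured 58.2, 64.5, 59.1 and 58.6 CPM in naive, 75.6, 72.7, 76.4 and 73 with IL-4/IL-13 and 575, 616, 615 and 592 with tunicamycin, 9.98-fold over naive. *Eprs1* (glutamate and proline) measured 69.7, 62.3, 79.4 and 74.6 CPM in naive, 104, 104, 115 and 104 with IL-4/IL-13 and 521, 593, 587 and 550 with tunicamycin, 7.87-fold over naive. Both stood apart from the other groups in every tunicamycin library. *Wars1* (tryptophan) rose 7.05-fold, *Yars1* (tyrosine), with 17.7% of its words shared, 5.82-fold and *Nars1* (asparagine), the highest of the family in naive by CPM at 258 ± 5.66, 3.05-fold. The smallest rise was of *Qars1* (glutamine), chosen after its value was seen, with means of 119 and 127 CPM.

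Genes of protein folding in the ER rose without exception among those tested. Of 31 genes for ER chaperones, ER-associated degradation and UPR sensors, 28 were called higher than naive and all 31 rose, with a median of 2.68 against 0.35 with IL-4/IL-13. The shares among all genes tested were 7.5% called higher and 37.1% rising. *Hspa5* (ENSMUSG00000026864, chr2:34661982-34668880), the chaperone BiP, chosen after its values were seen, measured 711, 824, 830 and 751 CPM in naive, 986, 1090, 1200 and 1020 with IL-4/IL-13 and 11600, 12800, 13200 and 11900 with tunicamycin. It was 15.9-fold over naive, with *Rabepk* overlapping 44.2% of its exons on the opposite strand and 32.2% of its words shared. *Calr* (ENSMUSG00000003814, chr8:85567946-85573667), the sugar-binding chaperone calreticulin, measured 1040, 1280, 1160 and 1070 CPM in naive, 1830, 1920, 2080 and 1910 with IL-4/IL-13 and 6920, 7340, 7820 and 7100 with tunicamycin, 6.41-fold over naive. *Derl3* (ENSMUSG00000009092, chr10:75729215-75731775), part of the channel that passes misfolded proteins out of the ER, was low in naive (1.42, 1.25, 1.61 and 1.59 CPM) and IL-4/IL-13 libraries (1.56, 1.71, 1.47 and 1.4) and reached 183, 186, 204 and 180 with tunicamycin, 128-fold over naive (log2 fold change 7 ± 0.27 (SE); edgeR quasi-likelihood test, Benjamini-Hochberg adjusted *P* = 3.5e-20; higher in 4 of 4 mice). In all 3 genes each tunicamycin library was above each library of the other groups. *Creld2*, a disulfide isomerase-like ER protein, rose 24.1-fold to 657 ± 12.8 CPM, *Hyou1*, an ER chaperone of the HSP70 family, 20.9-fold to 2290 ± 123, and *Pdia4*, a disulfide isomerase, 18.5-fold to 1690 ± 101. The sensors, chosen after their values were seen, rose less: *Ern1* (IRE1) had means of 104 and 272 CPM in naive and tunicamycin, *Atf6* 148 and 373, and *Eif2ak3* (PERK) 40.9 and 64.1.

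The target of the drug and most genes of its pathway rose as well. *Dpagt1* (ENSMUSG00000032123, chr9:44237316-44245247), the enzyme that tunicamycin blocks, measured 48.4, 54.8, 54.1 and 49.4 CPM in naive, 54.5, 56.8, 60.6 and 56 with IL-4/IL-13 and 185, 190, 186 and 178 with tunicamycin. All tunicamycin libraries were above all others, 3.58-fold over naive (log2 fold change 1.84 ± 0.05 (SE); edgeR quasi-likelihood test, Benjamini-Hochberg adjusted *P* = 7.6e-20). Of 31 genes of N-glycosylation and hexosamine synthesis 30 were tested, 18 were called higher and none lower, and at any fold 27 rose, 2 fell (*Alg1* and *Dpm1*) and 1 (*Ost4*) was not past the test, with a median of 1.68. Among all genes tested, 7.5% were called higher and 15.1% lower, and 37.1% rose and 40.5% fell. *Gfpt1* (ENSMUSG00000029992, chr6:87019801-87069179), the entry enzyme of hexosamine synthesis, measured 53.2, 44.2, 53 and 53.1 CPM in naive, 32.9, 33.3, 34.9 and 35.3 with IL-4/IL-13 and 405, 461, 452 and 434 with tunicamycin, 8.61-fold over naive, whereas IL-4/IL-13 alone lowered it. *Gnpnat1*, which acts next in that pathway, rose 8.34-fold to 67.2 ± 1.92 CPM, a value made uncertain by an overlap with *Styx* on the opposite strand over 68% of its exons. *Alg2*, a mannosyltransferase of the lipid-linked sugar, rose 5.24-fold, and the oligosaccharyltransferase parts *Ostc* and *Rpn1* rose 6.16-fold and 4.85-fold.

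**Figure D3:**
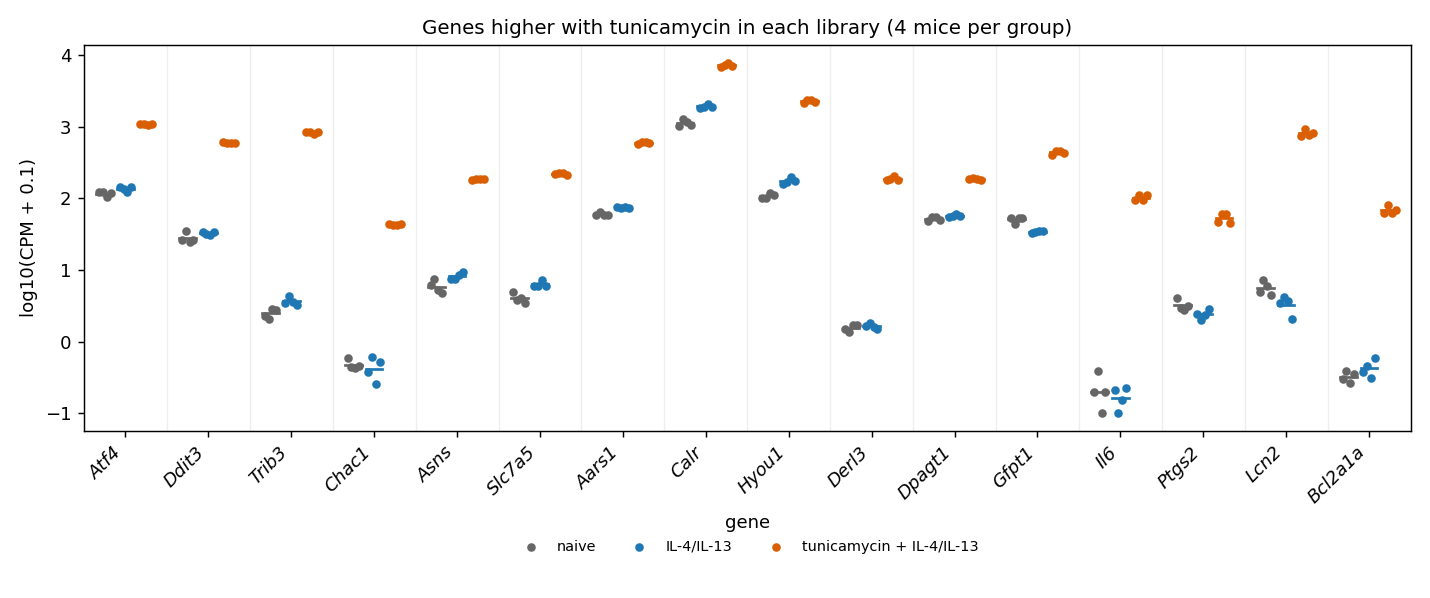
CPM of 16 genes with raised levels in tunicamycin libraries, in each of the 4 naive, 4 IL-4/IL-13 and 4 tunicamycin libraries, on a log10 scale after adding 0.1, with a bar at each group mean. For each gene all 4 tunicamycin libraries lie above all 8 others.

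Promoters of these genes were read from RefSeq (GRCm38.p6; 250 bases before to 50 after the start) because members of the lists moved together. The ER stress element (ERSE: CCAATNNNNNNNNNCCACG, on either strand) was in 10 of the 27 ER chaperone genes with a promoter there (37%; 31 in the list), in 17 of 9950 genes tested (0.171%) and in 37 of 27025 genes with a promoter (0.137%). Those of *Calr* (chr8:85573511-85573810, minus strand), *Creld2* (chr15:88703599-88703898, plus strand), *Derl3* (chr10:75728982-75729281, plus strand) and *Hspa5* (chr2:34661852-34662151, plus strand) follow, with the match in capitals and coordinates from an exact match of each sequence to GRCm39, which was single on its chromosome. A match is a description of letters and not evidence that a factor bound there.
*Calr*: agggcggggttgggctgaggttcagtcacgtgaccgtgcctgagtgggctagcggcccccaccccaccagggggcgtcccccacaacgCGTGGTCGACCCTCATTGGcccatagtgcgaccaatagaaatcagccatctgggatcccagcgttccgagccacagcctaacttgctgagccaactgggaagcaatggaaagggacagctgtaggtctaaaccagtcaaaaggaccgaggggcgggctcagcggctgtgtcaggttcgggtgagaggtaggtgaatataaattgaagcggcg
*Creld2*: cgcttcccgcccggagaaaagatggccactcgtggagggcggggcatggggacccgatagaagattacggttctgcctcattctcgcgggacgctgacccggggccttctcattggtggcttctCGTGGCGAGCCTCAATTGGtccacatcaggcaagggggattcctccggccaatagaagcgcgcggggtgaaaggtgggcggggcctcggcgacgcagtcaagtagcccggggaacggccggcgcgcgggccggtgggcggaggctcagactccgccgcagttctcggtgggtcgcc
*Derl3*: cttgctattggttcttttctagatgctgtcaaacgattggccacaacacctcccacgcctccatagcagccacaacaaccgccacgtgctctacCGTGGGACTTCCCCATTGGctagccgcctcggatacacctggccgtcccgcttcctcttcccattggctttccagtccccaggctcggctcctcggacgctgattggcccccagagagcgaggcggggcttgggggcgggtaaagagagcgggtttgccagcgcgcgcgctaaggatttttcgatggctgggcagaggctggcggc
*Hspa5*: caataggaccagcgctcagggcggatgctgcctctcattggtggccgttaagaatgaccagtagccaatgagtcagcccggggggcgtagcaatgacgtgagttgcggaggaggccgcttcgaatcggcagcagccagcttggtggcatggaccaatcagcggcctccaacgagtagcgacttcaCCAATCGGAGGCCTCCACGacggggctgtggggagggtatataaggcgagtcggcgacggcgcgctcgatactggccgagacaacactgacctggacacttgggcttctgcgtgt

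The core of the C/EBP-ATF response element (CARE: TGATGCAA, on either strand) was in 8 of 31 ISR genes with a promoter (25.8%; 34 in the list), in 76 of the 9950 genes tested (0.764%) and in 279 of the 27025 (1.03%). Of these 8 genes *Atf3* and *Vldlr* were not past the test against naive and *Fgf21* was not tested. *Chac1* (chr2:119181473-119181772, plus strand) held 1 match and *Slc7a11* (chr3:50398013-50398312, minus strand), one of the kept cytokine-induced genes, 2 matches on opposite strands, in capitals below.
*Chac1*: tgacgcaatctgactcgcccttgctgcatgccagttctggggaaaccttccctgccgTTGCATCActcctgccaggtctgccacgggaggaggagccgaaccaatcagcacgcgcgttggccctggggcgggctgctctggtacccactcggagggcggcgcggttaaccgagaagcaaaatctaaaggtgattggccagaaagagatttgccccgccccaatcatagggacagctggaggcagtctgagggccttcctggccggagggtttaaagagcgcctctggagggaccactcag
*Slc7a11*: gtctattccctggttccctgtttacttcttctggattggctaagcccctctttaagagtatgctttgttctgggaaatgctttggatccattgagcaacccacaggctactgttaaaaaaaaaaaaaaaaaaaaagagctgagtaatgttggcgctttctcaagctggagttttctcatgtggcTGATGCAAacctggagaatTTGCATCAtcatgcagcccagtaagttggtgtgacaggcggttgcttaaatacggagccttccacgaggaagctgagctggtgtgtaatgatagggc

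The STAT6 letters (TTCNNNNGAA, which read the same on both strands) were in 4 of the 65 kept cytokine-induced genes with a promoter (6.15%; 89 in the class), in 34 of the 303 below-naive genes (11.2%; 417 in the class), in 669 of the 9950 genes tested (6.72%) and in 2164 of the 27025 (8.01%). A kept gene, *Gfi1b* (chr2:28511945-28512244, minus strand), and a gene below naive, *Pdcd1lg2* (chr19:29388069-29388368, plus strand), are shown with their match in capitals.
*Gfi1b*: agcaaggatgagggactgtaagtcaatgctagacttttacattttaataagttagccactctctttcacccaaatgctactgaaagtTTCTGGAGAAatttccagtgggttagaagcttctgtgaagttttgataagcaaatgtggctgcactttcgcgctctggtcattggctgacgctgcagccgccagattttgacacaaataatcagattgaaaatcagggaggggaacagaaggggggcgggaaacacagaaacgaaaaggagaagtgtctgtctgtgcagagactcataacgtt
*Pdcd1lg2*: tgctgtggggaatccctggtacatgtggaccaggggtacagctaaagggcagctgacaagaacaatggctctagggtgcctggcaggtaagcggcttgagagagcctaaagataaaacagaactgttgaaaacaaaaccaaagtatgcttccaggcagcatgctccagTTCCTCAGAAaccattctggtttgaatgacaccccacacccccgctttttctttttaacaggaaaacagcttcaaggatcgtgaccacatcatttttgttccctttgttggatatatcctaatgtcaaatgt

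Outside these pathways the inflammatory genes were mixed, with strong rises of some and falls of others. Of 27 inflammatory cytokines, chemokines and enzymes 23 were tested, 11 were called higher than naive and 3 called lower, and at any fold 12 rose, 8 fell and 3 were not past the test. For comparison, 7.5% of all genes tested were called higher and 15.1% lower, and 37.1% rose and 40.5% fell at any fold. The list median was 0.98 with tunicamycin and -1.31 with IL-4/IL-13, beside -0.05 for all genes tested with tunicamycin. *Il6* (ENSMUSG00000025746, chr5:30218112-30224979), a cytokine of fever and the acute phase, measured 0.0976, 0.284, 0 and 0.0994 CPM in naive, 0.111, 0, 0.0527 and 0.121 with IL-4/IL-13 and 94.6, 112, 94.7 and 110 with tunicamycin. It was close to 0 in all 8 libraries without tunicamycin and 832-fold over naive with it (log2 fold change 9.70 ± 0.51 (SE); edgeR quasi-likelihood test, Benjamini-Hochberg adjusted *P* = 2.5e-23; higher in 4 of 4 mice). Without mouse 2, whose naive library held 5 of the 9 *Il6* counts of its group, the log2 fold change was 10.40. *Ptgs2* (ENSMUSG00000032487, chr1:149975194-149983978), cyclooxygenase 2, measured 4, 2.84, 2.68 and 3.08 CPM in naive, 2.34, 1.87, 2.26 and 2.79 with IL-4/IL-13 and 46.1, 60.1, 60.3 and 45.6 with tunicamycin, 16.7-fold over naive. *Ccl3* (ENSMUSG00000000982, chr11:83538670-83540191), a chemokine of the CC family, was lowered by IL-4/IL-13 and raised with tunicamycin, at 24.5, 29.4, 23.2 and 25.8 CPM in naive, 9.08, 8.52, 9.64 and 7.77 with IL-4/IL-13 and 280, 310, 298 and 286 with tunicamycin, with 18.2% of its words shared. All 3 were highest in every tunicamycin library.

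*Nos2* (ENSMUSG00000020826, chr11:78811613-78851080), which makes nitric oxide, rose 16.4-fold over naive but only to 4.26, 4.19, 4.71 and 4.33 CPM, from 0.293, 0.114, 0.375 and 0.248. *Acod1*, which makes itaconate, fell with IL-4/IL-13 (8.2 ± 0.317 to 1.63 ± 0.595 CPM) and was 16.2 ± 2.78 with tunicamycin, a rise of 1.97-fold against naive. *Il1b* (ENSMUSG00000027398, chr2:129206490-129213059) went the other way: it measured 15.6, 16.9, 14.3 and 16.1 CPM in naive, 0.557, 0.303, 0.421 and 0.728 with IL-4/IL-13 and 0.822, 1.29, 0.964 and 1.53 with tunicamycin. Both treated groups of *Il1b* were low, and tunicamycin was 13.5-fold under naive. *Ccl9*, the chemokine of the list with the highest naive CPM, rose with IL-4/IL-13 (736 ± 73.1 to 2080 ± 55.4) and fell below naive with tunicamycin (296 ± 18.5). *Tnf*, chosen after its value was seen, had means of 19.3, 6.11 and 16.7 CPM and was not past the test against naive.

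Beside *Il6*, the largest rises against naive under the naming rule were of transcripts nearly silent in the other groups. *Avil* (ENSMUSG00000025432, chr10:126836578-126856863), the actin-binding protein advillin, had 0, 2, 1 and 2 counts in the naive libraries and measured 75.2, 74.4, 85.1 and 74.6 CPM with tunicamycin. The ratio of pooled counts was 1180 (95% exact counting interval 507 to 3650), and IL-4/IL-13 libraries (0.167, 0.101, 0.0527 and 0.0607 CPM) were as low as naive. *Ffar2* (ENSMUSG00000051314, chr7:30517773-30536075), a receptor for short-chain fatty acids, measured 0, 0.114, 0.107 and 0.0497 CPM in naive, 0.111, 0.0504, 0.158 and 0.121 with IL-4/IL-13 and 55.1, 55, 55.9 and 59.2 with tunicamycin, at a tunicamycin to naive ratio of 865 (95% exact counting interval 370 to 2660). *Soat2* (ENSMUSG00000023045, chr15:102058797-102071904), which esterifies cholesterol, measured 0.195, 0.171, 0.0536 and 0.0497 CPM in naive, 0.223, 0.252, 0.105 and 0.182 with IL-4/IL-13 and 64.9, 65.3, 59.3 and 65.8 with tunicamycin, 517-fold over naive. In these 3 genes naive and IL-4/IL-13 libraries overlapped near 0 and the tunicamycin libraries stood alone.

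*Lcn2* (ENSMUSG00000026822, chr2:32274645-32278264), the iron-siderophore binder lipocalin 2, measured 4.78, 7.16, 5.85 and 4.37 CPM in naive, 3.4, 4.14, 3.63 and 1.94 with IL-4/IL-13 and 732, 933, 773 and 806 with tunicamycin, 147-fold over naive. Of 22 p53 targets and cell death genes 21 were tested, 5 were called higher and 4 lower than naive, and at any fold 9 rose, 8 fell and 4 were not past the test (median -0.1). Among all genes tested 7.5% were called higher and 15.1% lower, and 37.1% rose and 40.5% fell (median -0.05). The 3 risers with the largest change were copies of one anti-apoptotic gene. *Bcl2a1a* measured 0.195, 0.284, 0.161 and 0.248 CPM in naive, 0.278, 0.353, 0.211 and 0.486 with IL-4/IL-13 and 63.3, 80.8, 63 and 68.8 with tunicamycin, and *Bcl2a1d* and *Bcl2a1b* rose to means of 77.8 ± 4.36 and 24.7 ± 4.2 CPM. With 48.8%, 53.4% and 30.8% of their words found elsewhere in the genome, how reads divide between *Bcl2a1a*, *Bcl2a1d* and *Bcl2a1b* is uncertain. *Mcl1*, another anti-apoptotic gene, fell 2.87-fold from 1300 ± 51.8 to 454 ± 20 CPM, and *Sesn1*, a p53 target of growth control, 11.7-fold from 425 ± 7.79 to 36.2 ± 1.58. Both stood between these levels with IL-4/IL-13 alone. *Sesn1* had 8507, 7630, 7974 and 8543 counts in naive, 2130, 2510, 2316 and 2005 with IL-4/IL-13 and 751, 737, 626 and 703 with tunicamycin. *Mcl1* had 17876, 19861, 18901 and 16672 counts with IL-4/IL-13, against 26736, 24126, 24056 and 25093 in naive.

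Genes of antigen presentation and of cell division, whose medians with IL-4/IL-13 were above naive, lay below it with tunicamycin. All 10 tested genes of 11 for MHC class II presentation were called lower than naive with tunicamycin (median -2.92), whereas with IL-4/IL-13 3 were called higher and 1 lower (median 0.92). Among all genes tested, 15.1% were called lower with tunicamycin, and IL-4/IL-13 called 5.39% higher and 6.08% lower. *H2-Aa* (ENSMUSG00000036594, chr17:34493404-34506798), an MHC class II chain, measured 653, 883, 596 and 572 CPM in naive, 1190, 1300, 1230 and 1220 with IL-4/IL-13 and 71.3, 64.7, 67.2 and 69.6 with tunicamycin. *H2-Eb1*, another chain, which overlaps *H2-Aa*, measured 457, 597, 408 and 386 CPM in naive, 632, 659, 632 and 668 with IL-4/IL-13 and 45.8, 39.8, 38.5 and 39.5 with tunicamycin. Both were lowest in every tunicamycin library, at 9.91-fold and 11.3-fold under naive. *H2-DMa* and *H2-DMb2*, which load peptides, fell to means of 7.83 ± 0.591 and 0.156 ± 0.046 CPM from 82.9 ± 14.1 and 3.9 ± 0.79, and *Ctss*, the protease that trims the invariant chain, from 5540 ± 504 to 1500 ± 157. Of the words of *H2-DMb2*, 14.9% lie elsewhere in the genome.

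Of 24 genes of mitosis and G2/M, 22 were called higher with IL-4/IL-13 (median 1.73) and 20 were called lower than naive with tunicamycin (median -1.95). At any fold 23 fell with tunicamycin and 1, *Tpx2*, was not past the test. Among all genes tested, IL-4/IL-13 called 5.39% higher, and with tunicamycin 15.1% were called lower and 40.5% fell. *Kif11* (ENSMUSG00000012443, chr19:37364799-37410307), a spindle motor, measured 12, 9.61, 10.7 and 10.1 CPM in naive, 37.9, 31.6, 35.5 and 26.6 with IL-4/IL-13 and 0.924, 1.24, 1.53 and 1.48 with tunicamycin, 8.21-fold under naive. *Ccna2*, cyclin A2, measured 9.95, 10.5, 8.15 and 8.25 CPM in naive, 47.1, 40.6, 47.1 and 32.3 with IL-4/IL-13 and 1.23, 1.19, 1.25 and 1.43 with tunicamycin, 7.19-fold under naive, with 15% of its words shared. Both fell in 4 of 4 mice to about 1 CPM. *Nusap1* and *Cenpf*, of the spindle and kinetochore, fell 7.9-fold and 6.78-fold, while *Top2a*, which untangles DNA, fell 1.65-fold to 14.2 ± 1.07 CPM. Of 25 genes of DNA replication and nucleotide synthesis, 13 were called higher with IL-4/IL-13 (median 1.33), and with tunicamycin 9 were called lower and 1 (*Tyms*) higher than naive, with 2 rising, 20 falling and 3 not past the test at any fold (median -1.07). The shares of all genes tested given for mitosis apply here too, with 7.5% called higher and 37.1% rising with tunicamycin. *Rrm2*, which makes deoxynucleotides, measured 9.56, 12.2, 8.79 and 8.3 CPM in naive, 47.2, 52, 50 and 38.7 with IL-4/IL-13 and 1.23, 0.904, 1.13 and 1.17 with tunicamycin. *Uhrf1*, which copies DNA methylation, and *Mcm5*, a part of the replicative helicase, fell 7.54-fold and 4.24-fold, and *Pcna*, the sliding clamp, 1.51-fold. Of their words, 27.6% for *Rrm2* and 24.7% for *Pcna* are shared.

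Other genes that fell against naive included a transporter and endosomal receptors. *Slco2b1* (ENSMUSG00000030737, chr7:99306783-99360547), an importer of organic anions, measured 20.7, 22.3, 21.2 and 24.9 CPM in naive, 23.7, 25.1, 26.6 and 32.7 with IL-4/IL-13 and 0, 0.0476, 0.0567 and 0.0509 with tunicamycin, at a naive to tunicamycin ratio of pooled counts of 578 (95% exact counting interval 198 to 2810). *Zfyve28* (ENSMUSG00000037224, chr5:34352216-34445890), a regulator of endosomal EGF receptor signalling, measured 112, 85.7, 112 and 120 CPM in naive, 48.2, 54.8, 49.2 and 52.6 with IL-4/IL-13 and 0.822, 0.619, 0.964 and 0.917 with tunicamycin, 129-fold under naive. Both were low in every tunicamycin library. Of 15 Toll-like receptor genes and their partners, 4 were called lower than naive and none higher, and at any fold 3 rose, 10 fell and 2 were not past the test (median -0.53), beside 15.1% called lower and 40.5% falling among all genes tested. *Tlr13* (ENSMUSG00000033777, chrX:105186810-105204533), which senses bacterial ribosomal RNA, measured 268, 250, 323 and 311 CPM in naive, 192, 201, 234 and 206 with IL-4/IL-13 and 21.6, 20.1, 21.3 and 21.2 with tunicamycin, 13.7-fold under naive. *Tlr8* fell 3.87-fold. *Tlr7* and *Tlr3* also fell with IL-4/IL-13 alone: with tunicamycin *Tlr7* fell 3.03-fold to 78.5 ± 5.75 CPM, above its level with IL-4/IL-13 (56.3 ± 6.93), and *Tlr3* fell to 12 ± 0.959 CPM, close to its own level with the cytokines (12 ± 0.923). *Unc93b1*, which carries these receptors to endosomes, differed little (1810 ± 150 and 1620 ± 22.4 CPM), and its small fall (log2 fold change -0.16 ± 0.05 (SE); edgeR quasi-likelihood test, Benjamini-Hochberg adjusted *P* = 0.0029) was not past the test without mouse 1 (-0.13; 0.063) and without the filter on low counts (-0.08; 0.27).

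The lists of metabolism are given beside the shares of all genes tested, of which 7.5% were called higher and 15.1% lower, and 37.1% rose and 40.5% fell at any fold (median -0.05). Of 29 genes of cholesterol and fatty acid synthesis 28 were tested, 3 were called higher and 4 lower than naive, and at any fold 14 rose, 10 fell and 4 were not past the test (median 0.18, and 0.57 with IL-4/IL-13). *Elovl6*, which elongates fatty acids, rose 12.2-fold (3.17, 2.33, 3.22 and 2.93 CPM in naive, 32.3, 38.9, 34.9 and 36.3 with tunicamycin). *Scd1*, a fatty acid desaturase, fell 5.74-fold (2.73, 3.7, 3.43 and 2.43 CPM in naive, 0.513, 0.524, 0.681 and 0.408 with tunicamycin). With IL-4/IL-13 alone *Scd1* was above naive, at 215, 208, 216 and 183 counts against 56, 65, 64 and 49. *Acly*, which makes cytosolic acetyl-CoA, was not past the test (175 ± 15.5 and 183 ± 0.779 CPM; log2 fold change 0.06 ± 0.05 (SE), and 0 with upper-quartile scaling). Of 14 NRF2 targets and genes of heme handling, 2 were called higher and 1 lower, and at any fold 9 rose, 3 fell and 2 were not past the test (median 0.46, and 0.03 with IL-4/IL-13). *Sqstm1*, the autophagy receptor p62, measured 654, 806, 688 and 716 CPM in naive, 482, 491, 508 and 510 with IL-4/IL-13 and 3700, 3960, 3680 and 3790 with tunicamycin, 5.28-fold over naive with no overlap between groups and 14.8% of its words shared. *Slc40a1*, the iron exporter ferroportin, fell 8.47-fold to 21 ± 1.84 CPM, and *Gclm*, of glutathione synthesis, rose 1.96-fold. *Slc40a1* was already low with the cytokines alone. It had 3098, 3076, 3488 and 4036 counts in naive, 465, 568, 617 and 470 with IL-4/IL-13 and 410, 440, 332 and 458 with tunicamycin. *Fth1*, ferritin heavy chain, rose 1.44-fold to 19600 ± 199 CPM, with 25.8% of its words shared.

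Of 19 genes of glycolysis and glucose uptake, 1 (*Pfkp*) was called higher and none lower, and at any fold 10 rose, 7 fell and 2 were not past the test (median 0.17, and 0.31 with IL-4/IL-13). *Hk3*, a hexokinase, rose 2.41-fold to 679 ± 51.2 CPM, *Slc2a1*, the glucose transporter GLUT1, 2.31-fold, and *Pgk1*, with 67.2% of its words elsewhere in the genome, 2-fold. *Slc2a1* and *Pgk1* were above naive with IL-4/IL-13 alone too. *Slc2a1* had 597, 526, 581 and 591 counts in naive, 877, 1210, 1252 and 950 with IL-4/IL-13 and 1297, 1475, 1303 and 1293 with tunicamycin. For *Pgk1* these were 736, 848, 634 and 670, then 1668, 1837, 1749 and 1394, then 1436, 1659, 1278 and 1524. *Hk3* had 6079, 7059, 6737 and 6071 with IL-4/IL-13, against 5590, 5274, 5058 and 5745 in naive. *Pkm*, pyruvate kinase, fell 1.2-fold to 1320 ± 50.2 CPM, with 23.5% of its words shared. Of the 13 genes encoded by mitochondrial DNA 7 were tested, none was called in either direction, and 3 fell at any fold (median -0.36 with tunicamycin and 0.78 with IL-4/IL-13). *mt-Nd2*, *mt-Nd1* and *mt-Nd4*, subunits of complex I, fell 1.61-fold, 1.51-fold and 1.4-fold; *mt-Nd2* measured 284, 351, 321 and 441 CPM in naive, 491, 671, 530 and 762 with IL-4/IL-13 and 175, 242, 214 and 237 with tunicamycin. *mt-Cytb* and *mt-Co1* were not past the test (edgeR quasi-likelihood test, Benjamini-Hochberg adjusted *P* = 0.054 and 0.088) and were with mouse as a block (0.029 and 0.034). Of the words of *mt-Nd4* 61.5%, and of *mt-Co1* 39.8%, lie elsewhere in the genome, which makes their counts uncertain. The sequences of *mt-Co2*, *mt-Atp6*, *mt-Atp8*, *mt-Co3* and *mt-Nd4l* lie in full elsewhere in the genome, mostly on chromosome 1, and together with *mt-Nd3* (98.9%) they had no or almost no counted read in the 3 groups. Reads on mitochondrial genes made up 0.604 ± 0.127% of those on genes in naive (SD, n = 4), 0.869 ± 0.179% with IL-4/IL-13 and 0.493 ± 0.0742% with tunicamycin.

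**Figure D4:**
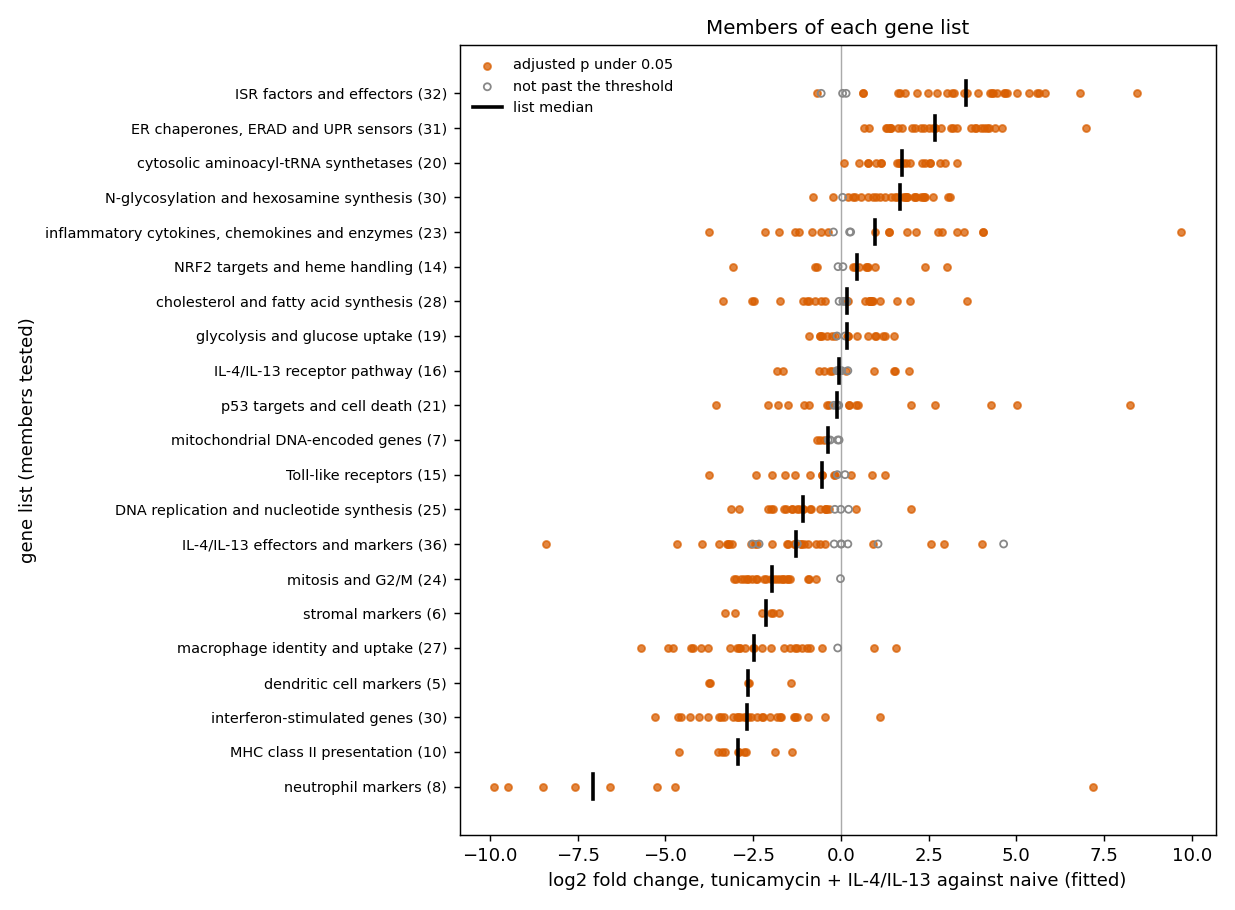
Log2 fold change of tunicamycin plus IL-4/IL-13 against naive for the tested members of each gene list (1 point per gene) with a bar at the list median. The ISR (3.56) and ER chaperone (2.68) medians are the highest, and the neutrophil marker median (-7.07, or -4.92 with floor genes at their bound) is the lowest.

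Markers of other cells that a marrow culture can hold were low in naive libraries and mostly lower with tunicamycin. The 10 neutrophil markers summed to 60, 84.7, 62 and 45.4 CPM in naive, with *S100a9* the highest by CPM at a mean of 18.3. With tunicamycin they summed to 732, 933, 773 and 806, of which *Lcn2* had a mean of 811, while 9 of the 10 were under 1 CPM and *Ly6g*, *Camp* and *Elane* were at 0. Of the 8 tested, 7 were called lower than naive and 1, *Lcn2*, higher. Over all genes tested, 15.1% were called lower and 7.5% higher, shares that also stand beside the stromal and dendritic cell lists below. *S100a9* (ENSMUSG00000056071, chr3:90599931-90603071), a calcium-binding protein of neutrophil granulocytes, measured 16.8, 27.2, 17.6 and 11.7 CPM in naive, 12.8, 13.3, 13 and 6.74 with IL-4/IL-13 and 0, 0.0476, 0 and 0 with tunicamycin, at a naive to tunicamycin ratio of pooled counts of 1400 (95% exact counting interval 251 to 55400). *Ngp* (ENSMUSG00000032484, chr9:110248815-110252086) and *Ltf* (ENSMUSG00000032496, chr9:110848339-110871835), granule proteins, gave ratios of 1080 (95% exact counting interval 193 to 42600) and 448 (95% exact counting interval 124 to 3710), with naive means of 14.1 ± 3.89 and 11.6 ± 2.35 CPM. In these 3 genes the tunicamycin libraries held at most 1 count each.

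The 6 stromal markers were all tested and all called lower than naive (median -2.13), and summed to 142, 85.9, 92.8 and 19.9 CPM in naive and 26.1, 16.1, 19.7 and 3.87 with tunicamycin, *Col1a2* being the highest by CPM and none at 0 in a group. The sum was lower with tunicamycin in each mouse. *Col1a1*, a collagen chain, measured 62.1, 35.6, 39.9 and 8.15 CPM in naive and 7.86, 3.9, 5.45 and 0.917 with tunicamycin, and *Col1a2* 63, 40.1, 40.8 and 8.35 and 15, 10.5, 12.3 and 2.24. Mouse 5 was far under the other mice in each group, and *Col1a2* overlapped between the groups while *Col1a1* did not. Of 6 dendritic cell markers 5 were tested and called lower (median -2.64), with sums of 10.9, 10.5, 7.99 and 12.5 CPM in naive and 1.95, 2.14, 1.64 and 2.5 with tunicamycin. *Ccr7*, the highest by CPM in naive, fell 6.24-fold and *Zbtb46* 2.67-fold. *Xcr1*, the member not tested, was at 0 in naive and had a mean of 0.142 CPM with tunicamycin.

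The 5 B cell markers summed to 2.39, 2.9, 1.39 and 2.29 CPM in naive and 2.36, 3.24, 2.38 and 2.5 with tunicamycin, and *Cd79b* alone was tested and rose 1.86-fold (1.32, 1.71, 1.07 and 1.29 CPM in naive, 2.31, 3.19, 2.27 and 2.24 with tunicamycin). The 5 mast cell and basophil markers summed to 1.27, 0.796, 0.59 and 0.894 CPM in naive and 0.154, 0.381, 0.227 and 0.509 with tunicamycin, and *Gata2*, the member tested, was called lower (0.409 ± 0.171 and 0.0731 ± 0.0918 CPM; log2 fold change -2.34 ± 0.77 (SE), and -1.62 without mouse 1 and -3.47 without mouse 2). None of the 6 T and NK cell markers and none of the 6 erythroid markers passed the filter on low counts. T and NK cell markers summed to 0.293, 0.398, 0.268 and 0.248 CPM in naive and 0.103, 0.143, 0.0567 and 0 with tunicamycin, with *Klrb1c* the highest by CPM. Erythroid markers were at 0 in all tunicamycin libraries. The part that such other cells had in the results on macrophage genes was not tested, and the counting intervals and floors given above cover counting error only.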

How the data were processed

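The deposited values used here are raw read counts per gene for 56884 gene identifiers, which the authors made with cutadapt 1.8, STAR 2.7 on GRCm39 and HTSeq 0.9.1 per the labels and methods; the strand setting is not stated. Totals that name no gene (12.7% to 15.2% of reads) were left out. The deposited RSEM 1.2.31 TPM table was not used, because its header has 28 names over 25 cells. Symbols and positions are from GENCODE vM39 (56323 identifiers matched). In R 4.3.3 with edgeR 4.0.16, the 24 libraries of the 6 groups entered 1 model with a coefficient per group (TMM, filterByExpr by group, quasi-likelihood test), and *P* was Benjamini-Hochberg adjusted over the 13679 genes tested. The groups beside naive, IL-4/IL-13 and tunicamycin had IL-4 and IL-13 with Sal003 or with oligomycin. They entered the fit but none of the comparisons. For the oligomycin libraries, titles and library names disagree on which set also had the ISR inhibitor ISRIB, and this was not decided. Fold changes carry edgeR's prior count of 0.125. The code was tested on simulated data. Same-numbered libraries come from the same mouse: after group means were removed, log2 CPM correlated across genes with a median of 0.2 in 12 pairs of one mouse and -0.06 in 36 pairs of different mice, so mouse was run as a block among the alternatives. The others were DESeq2 1.42.0, upper-quartile, RLE and total-count scaling, other filters, a prior count of 0.5, 2-fold and 4-fold limits, a fit on the 12 libraries alone, leaving out each mouse, and choosing the genes in mice 1 and 2 and measuring them in mice 4 and 5. Replicates differed beyond counting error (chi-square per gene 2.3 to 36.3).

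Named genes were the 4 largest rises and falls against naive; the 5 largest changes per class (adjusted *P* under 0.05, same direction in 4 mice, mean of at least 50 counts, no predicted gene); in each list the 4 largest changes with at least 50 counts and the highest in naive; genes the study names; *Dpagt1* and *Stat6*; and the 13 mitochondrial genes as a group. Members and lists were chosen with earlier results of these data known.

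Some genes these rules pick are not reported here and were not replaced, though they stay in the fit, the classes and the lists.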

Additional observations from a re-analysis of the deposited data

Results flagged for a closer look

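In 25 of 405 sets of a named gene and a group (6.17%), 1 of the 4 libraries stood so far from the other 3 that its gap to the nearest one took a share of the whole range above Dixon's 95% limit for 4 values. Chance marks about 1 in 20 such groups. The values below are CPM, and why they stood apart was not tested.

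Among the tunicamycin libraries, mouse 4 was high for *Avil* (85.1), *Tlr3* (13.4) and *Mrc1* (85.9) and low for *Soat2* (59.3). Mouse 5 was low for *Jak2* (170), *Mcm5* (4.74) and *Cx3cr1* (1.53), and mouse 2 was high for *Cd79b* (3.19). In each case the lone library stayed on the same side of the naive mean as the other 3.

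Among the naive libraries, mouse 2 was high for *Aars1* (64.5), *Nusap1* (6.54), *Fth1* (16900) and *Retnla* (0.398, which is 7 counts) and low for *Gfpt1* (44.2). Mouse 1 was high for *Rab44* (3.27) and *Chac1* (0.488).

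Among the IL-4/IL-13 libraries, mouse 5 was low for *S100a9* (6.74), *Tyms* (9.41) and *Pgk1* (84.6) and high for *Ptpn6* (218) and *Oasl2* (75). Mouse 4 was high for *Slc7a5* (7.11), *Eprs1* (115) and *Slc7a11* (17.4), and mouse 1 was low for *Gfi1b* (8.3) and *Tlr3* (10.6).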

How the results depend on the processing

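Of 232 counts and shares computed under the alternatives, 210 were within 1.5 times the value in the report. The 22 others came from the filters, the fold limits and the split of the mice. With no filter on low counts (27890 genes), 36.9% of cytokine-induced and 20.9% of cytokine-repressed genes were not past the test against naive. With at least 10 counts in every library of the groups compared (11197 genes tested), tunicamycin called 654 genes higher and 1130 lower than naive and 719 higher and 1057 lower than IL-4/IL-13, IL-4/IL-13 called 374 higher and 476 lower than naive, 17.4% of induced genes were partly kept, and 400 genes were new and higher and 505 new and lower; fewer genes enter that filter. At a 2-fold limit, tunicamycin called 1574 genes higher than naive and IL-4/IL-13 called 1269 lower. At a 4-fold limit, tunicamycin called 494 higher and 1212 lower than naive and 605 higher and 1249 lower than IL-4/IL-13, IL-4/IL-13 called 349 higher and 372 lower, and 320 genes were new and higher. When classes were chosen in mice 1 and 2 (754 induced and 843 repressed genes) and measured in mice 4 and 5, 34.2% of induced and 22.2% of repressed genes were not past the test, with fewer libraries per group.

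Leaving out each mouse in turn, genes called higher than naive with tunicamycin ranged from 1018 to 1092 and those called lower from 1952 to 2113, the share of induced genes kept from 11.5% to 13.4% and below naive from 49.9% to 53.8%, and new genes from 628 to 686 higher and 856 to 922 lower. With mouse as a replicate block (paired fit), tunicamycin called 1027 higher and 2064 lower than naive and 1168 higher and 1935 lower than IL-4/IL-13, IL-4/IL-13 called 740 higher and 833 lower, 12.2% of induced genes were kept, and 650 genes were new and higher and 933 new and lower.

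Of 1808 values of 142 named genes, 1779 kept their direction and their side of the adjusted *P* limit of 0.05, whatever the fold; 5 were no longer past it, 22 came past it and 2 turned sign, in 10 genes in all. The turns were of *Atf3* (-0.02) and *Acly* (0) with upper-quartile scaling, both not past the test; the cause was not tested. Those no longer past it were of *Unc93b1*, *Mgl2* and *Pdcd1lg2*, as given in the report, and those that came past it of *Rnase2a*, *Ptpn6*, *Retnla*, *Atf3*, *mt-Cytb* and *mt-Co1*. Of 138 list medians 124 moved by less than the spread between mice, and the largest move was 2.15 on the log2 scale, for neutrophil markers with floor genes at their bound. No scaling moved the median of all genes by more than 0.07.

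Limits are the 4 mice, the missing group with tunicamycin alone, the shared naive libraries, and counts of unstated strand. A count of 0 in a library allows up to 3, so falls to 0 are given as bounds.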

Other observations

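Several members of the IL-4/IL-13 list outside the named genes, chosen after their values were seen, had high levels with the cytokines and lay below naive with tunicamycin. *Itgax*, the integrin CD11c, had means of 19.5 CPM in naive, 2110 with IL-4/IL-13 and 6.69 with tunicamycin. *Fn1*, fibronectin, had 24, 540 and 4.63, and *Atp6v0d2*, a proton pump subunit of osteoclasts and giant cells, 62.1, 717 and 28.3. *Clec7a*, the β-glucan receptor Dectin-1, had 264, 1070 and 27.8, and *Slc7a2*, an arginine importer, 6.39, 346 and 3.1.

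Among ISR effectors outside the named genes, also chosen after their values were seen, *Slc3a2*, the partner chain of several amino acid importers, had means of 241, 202 and 2920 CPM in naive, IL-4/IL-13 and tunicamycin. *Slc7a1*, an importer of cationic amino acids, had 6.38, 15.5 and 265, and *Mthfd2*, of mitochondrial one-carbon metabolism, 12.8, 21.5 and 194. *Atf5*, a factor related to ATF4, had 36.3, 71.6 and 415. *Psat1*, of serine synthesis, had 7.59, 38.7 and 42.2, close in both treated groups.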
